A study of Arabidopsis thaliana with 2 samples.

Results

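The WRKY transcription factors of Arabidopsis thaliana were followed as a family of 60 genes in 2 leaf transcriptomes. The genes were taken by locus identifier, and all 60 were found among the 33557 loci of the table. RefSeq names 12 further loci of the table as WRKY genes, so the family here means the 60 listed genes. Of these, 11 belong to structural group I, 39 to group II and 10 to group III. The mutant-labelled library came from plants given as Atclb1-1, homozygous for a T-DNA insertion that is described as a loss of function of AtCLB, which encodes a C2-domain protein that binds lipids when calcium is present. The other library came from wild type plants. Both were made from leaves of 2-week-old plants of ecotype Columbia kept at 23 °C under a 16-h photoperiod. Each genotype had 1 library, so no difference has a replicate check and no p-value is given. The mutant is a single insertion line.

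WRKY proteins are plant transcription factors named for the residues at the core of their DNA-binding domain, which is completed by a zinc finger and reads a short promoter motif called the W box. They are best known in leaves as regulators of immunity to pathogens, of senescence and of the balance between salicylic acid and jasmonate signalling, and many act on each other's genes. Group I proteins carry a pair of WRKY domains. Groups II and III carry a single domain, and group III has a finger that ends in cysteine in place of histidine. Group II is divided into IIa to IIe.

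The coding sequences were checked against this grouping and matched it for every member. All 11 group I genes encoded 2 WRKY cores, and all 39 group II and 10 group III genes encoded 1. The finger ended in cysteine in all 10 group III proteins and in none of the other groups. The domain of 1 member per group is shown because the comparison of groups rests on it, with WRKY51 added as a core variant. The sequences are spliced coding strands in TAIR10.1 (RefSeq). Capitals mark the 21 bases of the core and the 4 codons of the zinc ligands.
WRKY33 (group I, second domain): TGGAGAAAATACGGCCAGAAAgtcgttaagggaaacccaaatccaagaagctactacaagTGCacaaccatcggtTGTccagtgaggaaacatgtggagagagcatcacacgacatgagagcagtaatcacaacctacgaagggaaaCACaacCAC
WRKY40 (group IIa): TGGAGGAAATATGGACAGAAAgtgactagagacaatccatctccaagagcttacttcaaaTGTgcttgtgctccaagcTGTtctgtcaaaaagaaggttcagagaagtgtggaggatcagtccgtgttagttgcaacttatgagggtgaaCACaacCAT
WRKY51 (group IIc): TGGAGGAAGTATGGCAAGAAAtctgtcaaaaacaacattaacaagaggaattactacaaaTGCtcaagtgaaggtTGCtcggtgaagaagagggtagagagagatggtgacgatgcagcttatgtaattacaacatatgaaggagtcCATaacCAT
WRKY70 (group III): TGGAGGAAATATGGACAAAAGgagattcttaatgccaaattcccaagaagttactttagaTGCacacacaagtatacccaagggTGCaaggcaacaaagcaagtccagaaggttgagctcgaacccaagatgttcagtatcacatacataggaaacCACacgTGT
Between the first and the second ligand stand 4 codons in WRKY33 and WRKY51, 5 in WRKY40 and 7 in WRKY70. The core of WRKY51 encodes a lysine in place of the usual glutamine, as does that of WRKY50 and of no other member.

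The mutant-labelled library kept AtCLB transcript, at 13.5 FPKM against 39.2 FPKM in wild type (34.5% of the wild type level), so the genotype is given as labelled. FPKM counts fragments per kilobase of transcript and per unit of sequencing depth, so levels can be compared between genes. The steps between low values implied roughly 16700000 to 18200000 fragments in the mutant-labelled library and 14300000 to 15400000 in wild type. The leaf genes RBCS1A (8957 and 19812 FPKM), LHCB1.3 (4351 and 9659 FPKM) and LHCB2.1 (1951 and 1765 FPKM) were abundant in the mutant-labelled library and in wild type, with RBCS1A and LHCB1.3 each 2.2-fold lower in the mutant-labelled library, and the root markers RHD6, PHT1;2 and IRT1 did not pass 0.1 FPKM in either library. Guard cell markers moved both ways, with GC1 at 31.8 FPKM in the mutant-labelled library and 144 FPKM in wild type, MYB60 at 7.71 and 18.0 FPKM, and KAT1 at 32.4 and 12.8 FPKM. The clock separated the libraries widely. The dawn genes CCA1 and LHY stood at 162 and 74.0 FPKM in the mutant-labelled library against 7.39 and 3.41 FPKM in wild type, and the evening genes ELF4 and LUX at 4.95 and 1.05 FPKM against 343 and 56.6 FPKM. All 3 senescence markers were higher in the mutant-labelled library, with SAG13 at 1124 FPKM against 122 FPKM in wild type, NAP at 82.9 against 8.46 FPKM, and SAG12 at 45.4 FPKM against a listed 0. The sources used here do not give the time of day of harvest, so genotype and clock phase cannot be told apart in any difference below, and the part of senescence or of guard cell content was not tested.

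WRKY transcripts were more abundant in the mutant-labelled library for most of the family that was expressed. Of the 60 genes, 49 reached 1 FPKM in at least 1 library. On the scale log2((mutant FPKM + 1)/(wild type FPKM + 1)), 29 exceeded 2-fold in favour of the mutant-labelled library, 2 in favour of wild type, and 18 differed by less. Among all 18171 loci that passed this filter, 17.2% were higher and 10.8% lower by the same measure. The median difference was 1.33 over the measured WRKY genes and 0.21 over all these loci. Summed over the 60 genes, the family stood at 2001 FPKM in the mutant-labelled library and 708 FPKM in wild type, 2.83-fold apart. In bulk leaf RNA, more transcript per cell and more cells of an expressing type cannot be told apart.

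The filter bears on these counts, because 7 genes reached 1 FPKM through the mutant-labelled library alone and 2 through wild type alone. The count over the 40 genes at 1 FPKM or more in both libraries does not rest on such genes. Of them 23 were higher and 0 lower, against 14.6% higher and 8.9% lower among 15997 loci held to the same filter. The 2 lower genes of the family, WRKY42 and WRKY29, are the 2 that passed through wild type alone. This filter thus removes both, and WRKY42 missed it narrowly at 0.960 FPKM in the mutant-labelled library. A difference of at least 4-fold upward was found for 14 of the 49 measured genes, against 5.29% of all measured loci. These were 9 of 29 measured genes in group II, 5 of 10 in group III and 0 of 10 in group I. Some of them passed the filter through the mutant-labelled library alone, namely WRKY41, WRKY62 and WRKY63 of group III and WRKY61 of group II. The counts of groups II and III at 4-fold therefore rest in part on the filter. The 11 genes below the filter stayed under 0.91 FPKM in both libraries, and WRKY24 and WRKY43 were listed at 0 in both. RefSeq names 12 further loci of the table as WRKY genes, outside the 60. Of the 5 of these that were measured 4 were at least 2-fold higher, among them WRKY71 at 8.96 FPKM in the mutant-labelled library and 0.217 FPKM in wild type.

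**Figure D1:**
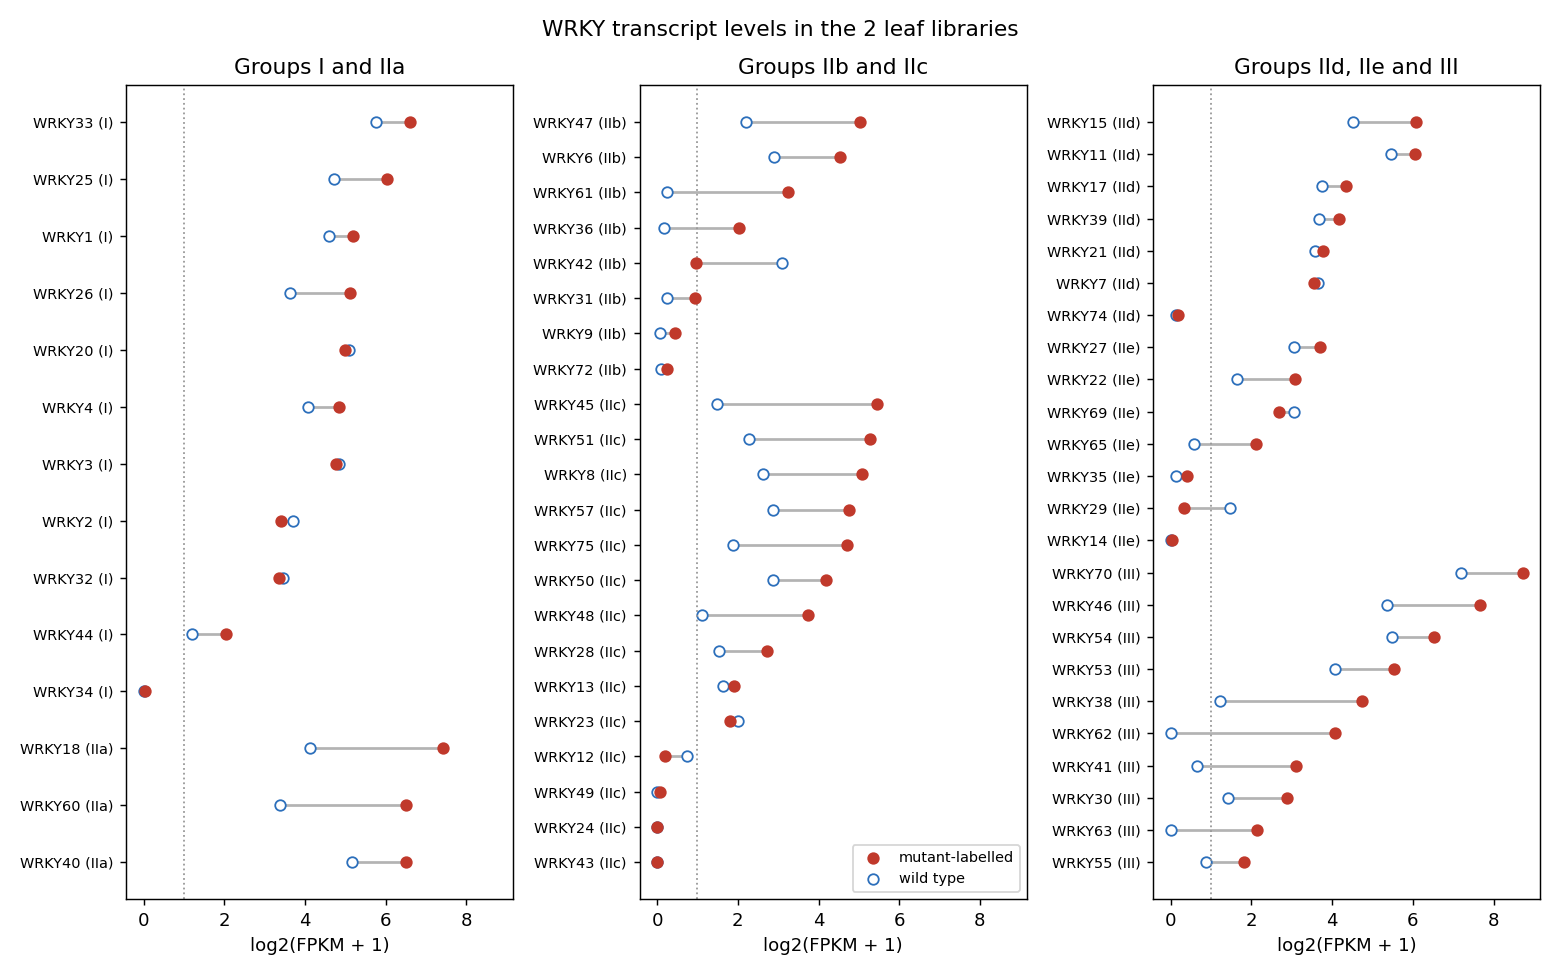
Level of each of the 60 WRKY genes as log2(FPKM + 1), with filled red points for the mutant-labelled library and open blue points for wild type, joined by a grey line. The dotted line marks 1 FPKM, and within a subgroup the genes run down the page by their level in the mutant-labelled library. Red points lie to the right for most measured genes, with WRKY42 and WRKY29 as the 2 genes at least 2-fold lower.

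The 3 groups differed in how much of their membership stood apart. In group I, 2 of 11 genes were at least 2-fold higher and 8 of the 10 measured ones differed by less. Of these 8, WRKY44 had a difference of 0.82 on this scale although its plain ratio was 2.36. In group II, 18 of 39 were higher and 2 lower, with 10 below the filter. In group III, 9 of 10 were higher, and the remaining gene, WRKY55, had a difference of 0.95, under 2-fold on this scale although its plain ratio was 3.06. Among all measured loci 17.2% were higher and 10.8% lower, so the 20% of measured group I genes lay near that share. The median difference was 0.68 in group I, 1.44 in group II and 1.83 in group III, beside 0.21 over all measured loci. Of the group III genes, 4 passed the filter through the mutant-labelled library alone. Among genes at 1 FPKM or more in both libraries, 2 of 10 in group I, 15 of 24 in group II and 6 of 6 in group III were higher, against 14.6% of loci held to the same filter, and the medians were 0.68, 1.39 and 1.49, so groups II and III lay closer together. Summed levels were 336 FPKM in the mutant-labelled library and 213 FPKM in wild type for group I, 844 and 245 FPKM for group II, and 821 and 250 FPKM for group III. In wild type the sums of the 3 groups thus lay within 40 FPKM of each other, and in the mutant-labelled library group I was the lowest. With 1 library per genotype these are descriptions, and no test was made between groups.

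Within group II the subgroups fell on either side. All 3 genes of IIa were higher, as were 4 of 8 in IIb, where 1 (WRKY42) was lower, and 8 of 14 in IIc. The medians were 3.13, 1.86 and 2.17 over 3, 5 and 10 measured genes. The IIb median is the value of WRKY36, which had few fragments in wild type. WRKY36 and WRKY61 of IIb passed the filter through the mutant-labelled library alone. In IId 1 of 7 genes was higher, and in IIe 2 of 7 were higher and 1 lower, with medians of 0.55 and 0.64 over 6 and 5 measured genes. The IId count is 16.7% of its measured genes, near the 17.2% higher among all measured loci, of which 10.8% were lower. The subgroups were not matched for wild type level either. IId and IIe together came to 221 FPKM in the mutant-labelled library and 131 FPKM in wild type, a ratio of 1.69, close to the 1.58 of group I. IIa, IIb and IIc together came to 623 and 114 FPKM, a ratio of 5.46.

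**Figure D2:**
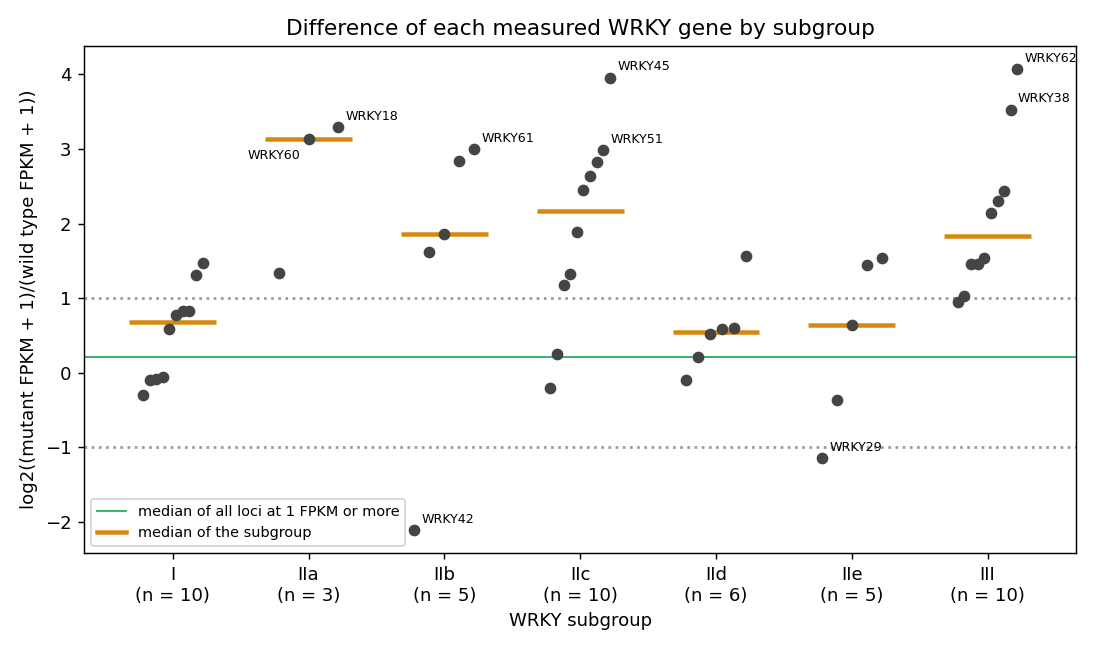
Difference between the mutant-labelled library and wild type for each WRKY gene at 1 FPKM or more in a library, by subgroup, as log2((mutant FPKM + 1)/(wild type FPKM + 1)). Orange bars are subgroup medians, the green line is the median of all measured loci (0.21), and the dotted lines mark 2-fold. IIa, IIb, IIc and III have medians of 1.83 or more, and I, IId and IIe of 0.68 or less. The IIb median is the value of WRKY36, which reached 1 FPKM in the mutant-labelled library alone.

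Group III held the most abundant WRKY transcript in each library. WRKY70, a node between salicylic acid and jasmonate signalling, stood at 423 FPKM in the mutant-labelled library and 146 FPKM in wild type (2.9-fold), and made up 21.1% and 20.6% of the family's summed FPKM. Its near relative WRKY54, which acts with it in salicylic acid responses and senescence, was at 90.6 and 44.1 FPKM and lay just inside the 2-fold limit with a difference of 1.02. WRKY46, which acts with WRKY70 and WRKY53 in basal resistance, was at 201 and 40.1 FPKM (5.01-fold). WRKY53, a regulator of early leaf senescence, was at 45 and 15.8 FPKM. These 4 genes were thus well expressed in wild type and more so in the mutant-labelled library.

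Other group III genes were scarce in wild type. WRKY38 and WRKY62, a pair of related negative regulators of basal defence, stood at 25.8 and 15.8 FPKM in the mutant-labelled library against 1.32 FPKM and a listed 0 in wild type. WRKY41, known for its part in seed dormancy, was at 7.55 and 0.581 FPKM, and WRKY30, linked to oxidative stress, at 6.34 and 1.68 FPKM. WRKY63 (ABO3), a gene of abscisic acid and drought responses, was at 3.40 FPKM in the mutant-labelled library and listed at 0 in wild type. WRKY55, a senescence-linked gene that neighbours WRKY54 on chromosome 2, was at 2.53 and 0.826 FPKM. A listed 0 can be a failed estimate, so no fold is given for WRKY62 and WRKY63.

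The IIa genes WRKY18, WRKY40 and WRKY60 encode proteins that bind one another and modulate immunity and abscisic acid responses. WRKY18 (AT4G31800; TAIR10.1 chromosome 4, 15382777 to 15385100, plus strand) stood at 171 FPKM in the mutant-labelled library and 16.5 FPKM in wild type, 10.4-fold apart. WRKY60 (AT2G25000; chromosome 2, 10629662 to 10631413, plus strand) was at 90.0 and 9.39 FPKM, 9.58-fold apart. WRKY40 (AT1G80840; chromosome 1, 30383561 to 30385499, plus strand) was at 89.7 and 35 FPKM, a smaller 2.56-fold. The order within the trio was WRKY18, WRKY60, WRKY40 in the mutant-labelled library, where the last 2 lay within 1 FPKM, and WRKY40, WRKY18, WRKY60 in wild type.

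The largest fold among genes detected in wild type above 1 FPKM belonged to WRKY45 of IIc, an activator of the phosphate transporter gene PHT1;1. WRKY45 (AT3G01970; TAIR10.1 chromosome 3, 325952 to 327412, minus strand) stood at 42.7 FPKM in the mutant-labelled library and 1.81 FPKM in wild type, 23.5-fold apart. WRKY75, which is known for phosphate starvation responses and leaf senescence, was at 25.1 and 2.69 FPKM (9.32-fold). WRKY24 and WRKY43, also of IIc, were the genes listed at 0 in both libraries.

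Other IIc genes were higher as well. WRKY51 and WRKY50, with the variant core, act where salicylic acid represses jasmonate signalling. WRKY51 was at 37.4 and 3.84 FPKM (9.74-fold) in the mutant-labelled library and in wild type, and WRKY50 at 17.3 and 6.28 FPKM (2.75-fold). WRKY8, which interacts with the VQ protein VQ9 in salt tolerance, was at 32.8 and 5.17 FPKM, and WRKY28, an activator of the salicylic acid synthesis gene ICS1, at 5.57 and 1.92 FPKM. WRKY48, a repressor of basal defence, was at 12.5 and 1.16 FPKM, and WRKY57, a gene of drought tolerance that restrains senescence, at 25.8 and 6.26 FPKM. WRKY13, a stem development gene, and WRKY23, an auxin-linked root gene, stayed within 2-fold at 2.72 and 2.12 FPKM and at 2.48 and 3.0 FPKM. WRKY12 and WRKY49 were below the filter.

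IIb held genes of both directions. WRKY6, a senescence and defence gene that represses the phosphate exporter gene PHO1, stood at 22.1 FPKM in the mutant-labelled library and 6.51 FPKM in wild type. WRKY42, which also represses PHO1, was the lowest of the family relative to wild type, at 0.960 and 7.47 FPKM (7.78-fold lower; AT4G04450, TAIR10.1 chromosome 4, 2218042 to 2221260, plus strand). The values correspond to roughly 38 to 41 fragments in the mutant-labelled library and 253 to 272 in wild type. WRKY42 and its closest relative among the 60 genes, WRKY31 (0.907 and 0.183 FPKM), therefore differed in opposite directions, WRKY31 below the filter.

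The remaining IIb genes were mostly low in wild type. WRKY47, linked to cell wall modification, was at 31.9 FPKM in the mutant-labelled library and 3.58 FPKM in wild type (8.91-fold). WRKY61 was at 8.42 and 0.182 FPKM and WRKY36 at 3.07 and 0.118 FPKM. In wild type these correspond to roughly 5 fragments for WRKY61 and 3 to 4 for WRKY36, too few to give a useful ratio. WRKY9 and WRKY72 were below the filter.

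Group I was the most even of groups I, II and III, with a median difference of 0.68 and a range of -0.30 to 1.47. Subgroup IId was similar, with 0.55 and a range of -0.10 to 1.56. WRKY33, a target of the MAP kinases MPK3 and MPK6 that switches on camalexin synthesis, stood at 95.5 FPKM in the mutant-labelled library and 53.4 FPKM in wild type (1.79-fold), short of the 2-fold limit. WRKY25 and WRKY26, which act with WRKY33 in heat tolerance, were the 2 higher genes. WRKY25 reached 64.8 FPKM in the mutant-labelled library against 25.5 FPKM in wild type, and WRKY26 33.5 FPKM against 11.4 FPKM. WRKY1 was at 35.4 and 23.3 FPKM, and WRKY4, a gene of resistance to necrotrophs, at 27.8 and 15.8 FPKM. WRKY3, its close relative, was at 26.4 and 27.5 FPKM, WRKY20 at 30.7 and 32.9 FPKM, WRKY2 at 9.59 and 12 FPKM, and WRKY32 at 9.31 and 9.91 FPKM. These last 4 genes lay slightly lower in the mutant-labelled library, each by less than 1.3-fold. WRKY44 (TTG2), a trichome and seed coat gene, was at 3.09 and 1.31 FPKM, and WRKY34, a pollen gene, was below the filter.

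The IId genes, whose proteins are known to bind calmodulin, differed little apart from WRKY15. WRKY15, linked to osmotic stress, stood at 66.8 FPKM in the mutant-labelled library and 22.0 FPKM in wild type (3.04-fold). Of the related repressors of basal resistance, WRKY11 had 65.3 and 43.2 FPKM and WRKY17 had 19.3 and 12.4 FPKM. WRKY7 was at 10.8 and 11.6 FPKM, WRKY21 at 12.8 and 10.9 FPKM, and WRKY39 at 17.1 and 11.7 FPKM. WRKY74 was below the filter.

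In IIe, WRKY22 and WRKY29, which act together below the flagellin receptor, differed in opposite directions. WRKY22 was at 7.5 FPKM in the mutant-labelled library and 2.13 FPKM in wild type, and WRKY29 at 0.254 and 1.77 FPKM. The WRKY29 values correspond to roughly 6 fragments in the mutant-labelled library and 35 to 38 in wild type. WRKY65 was at 3.32 and 0.494 FPKM and its relative WRKY69 at 5.45 and 7.28 FPKM. WRKY27, a gene that affects bacterial wilt symptoms, was at 12 and 7.31 FPKM. WRKY14 and WRKY35 were below the filter.

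Closest relatives mostly differed in the same direction, as most of the family did. Of the 49 measured genes 40 had a positive difference and 29 were at least 2-fold higher. Whether relatives shared a direction more often than other pairs was not tested. Alignment of the proteins encoded by the 60 genes gave 18 pairs of mutual best matches, all within 1 subgroup and 41.3 to 80.7% identical. The 12 further WRKY loci were not aligned, so a gene may have a closer relative outside the 60. Both genes were measured in 12 pairs. In 7 of these both were at least 2-fold higher, in 2 neither was and in 3 one was. The differences had the same sign in 9 pairs and opposite signs in the 3 pairs WRKY3/WRKY4, WRKY23/WRKY48 and WRKY65/WRKY69, in each of which the negative one was under 2-fold. WRKY18 and WRKY60, 69.4% identical, had differences of 3.30 and 3.13, and WRKY11 and WRKY17, 79.3% identical, of 0.58 and 0.59. The widest split was between WRKY23 and WRKY48, 42.8% identical, at -0.20 and 2.64.

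**Figure D3:**
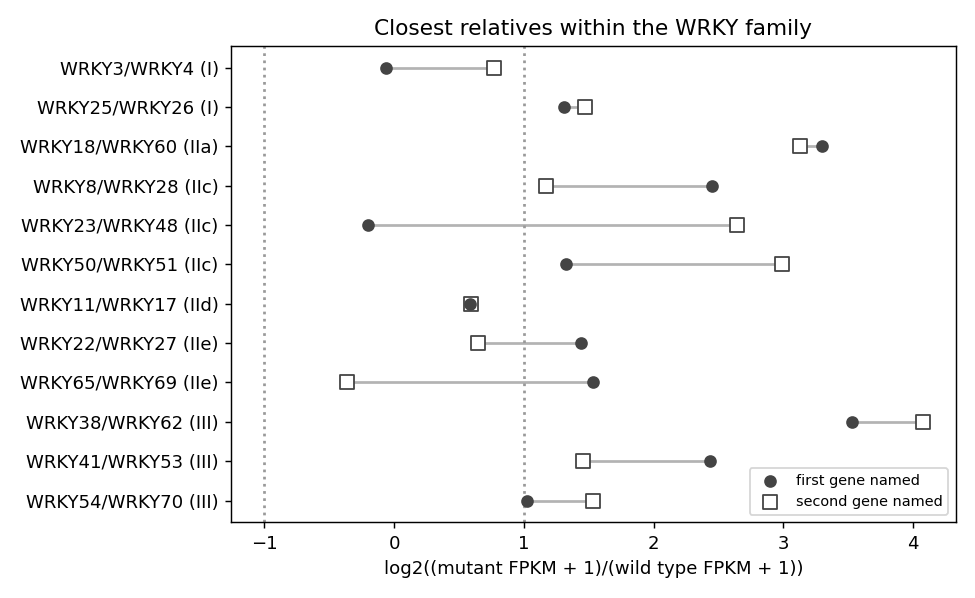
Differences of the 12 pairs of closest relatives among the 60 WRKY genes with both genes measured, as log2((mutant FPKM + 1)/(wild type FPKM + 1)). The filled circle is the first gene named, the open square the second, and dotted lines mark 2-fold. In 7 pairs both genes lie beyond 2-fold on the higher side.

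The order of levels within the family was partly kept. Of the 10 most abundant WRKY transcripts in the mutant-labelled library 7 were also among the 10 most abundant in wild type, and WRKY70 was first in both. WRKY46 was at rank 2 in the mutant-labelled library against 5 in wild type, and WRKY18 at rank 3 against 12. WRKY60 was at rank 6 in the mutant-labelled library against 22 in wild type, and WRKY45 at rank 12 against 37. WRKY20 and WRKY3 were at ranks 18 and 20 against 7 and 8.

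Each of the 12 members that overlap another annotated gene does so on the opposite strand, and the sources used here do not say whether the authors' counting used strand. Among the 29 higher genes these are WRKY40, WRKY41, WRKY53 and WRKY61. The overlapping coding genes of WRKY40, WRKY41 and WRKY53 were lower in the mutant-labelled library, at 2.47, 0.606 and 0.381 FPKM against 6.45, 2.35 and 5.16 FPKM in wild type, the opposite direction to the WRKY gene. Among the 48 members with no overlap, 39 of them measured, 25 were higher and 1 lower, against 17.2% higher and 10.8% lower over all measured loci.

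The kinases and partner proteins of WRKY factors had smaller median differences than the family's 1.33, and their described targets had a similar one. These lists were chosen with earlier results of these data known, so their counts and medians are descriptions only. Of 10 kinases of the MAP kinase cascades that act above WRKY factors, 2 passed 2-fold upward and 0 downward, and the median difference was 0.62. That is 20% of the list, near the 17.2% of all measured loci that were higher (10.8% were lower). MPK11 was at 43.5 FPKM in the mutant-labelled library and 14.1 FPKM in wild type, and MKK5 at 36.3 and 13.0 FPKM. MEKK1 (21.6 and 10.3 FPKM) and MKK4 (38.7 and 21.4 FPKM) stayed under 2-fold on the scale used, and MPK3, which phosphorylates WRKY33, was at 150 and 149 FPKM. Of 15 VQ proteins, small partners that bind the WRKY domain, 4 were higher and 0 lower, with a median of 0.45 over 13 measured, of which the 4 are 30.8%. JAV1 (VQ22), a repressor of jasmonate defence, was at 38.4 and 8.39 FPKM, CAMBP25 at 52.0 and 12.4 FPKM, VQ9 at 8.74 and 2.20 FPKM, and VQ8 at 1.19 FPKM against a listed 0. Of the WRKY33 partners, SIB1 had 144 and 121 FPKM and SIB2 23.5 and 41.3 FPKM.

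Of 23 genes described as bound or controlled by a WRKY factor, 13 passed 2-fold upward and 0 downward, and the median difference was 1.31 over 19 measured, beside 17.2% higher, 10.8% lower and a median of 0.21 over all measured loci. On the log2(FPKM + 1) scale the farthest apart were the senescence protease gene SAG12, given above, and the glutaredoxin gene GRX480, at 134 FPKM in the mutant-labelled library and 5.83 FPKM in wild type. Next on that scale came the jasmonate repressor gene JAZ8, at 16.8 and 0.444 FPKM, and the catalase gene CAT2, at 1930 and 282 FPKM. As plain ratios the order differs, with 37.8 for JAZ8, 22.9 for GRX480 and 6.84 for CAT2. Among the phosphate genes, chosen here after their values were seen, PHO1 was at 5.26 and 3.32 FPKM, within 2-fold, and PHT1;1 at 0.301 FPKM against a listed 0. PHT1;1 has a near-identical neighbour, PHT1;2, so its value is uncertain. The list was chosen with earlier results of these data known. It mixes genes described as activated by a WRKY factor, such as PHT1;1, and as repressed, such as PHO1. Several of the listed genes are also markers of salicylic acid defence or senescence, and their control by WRKY factors was not tested here.

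**Figure D4:**
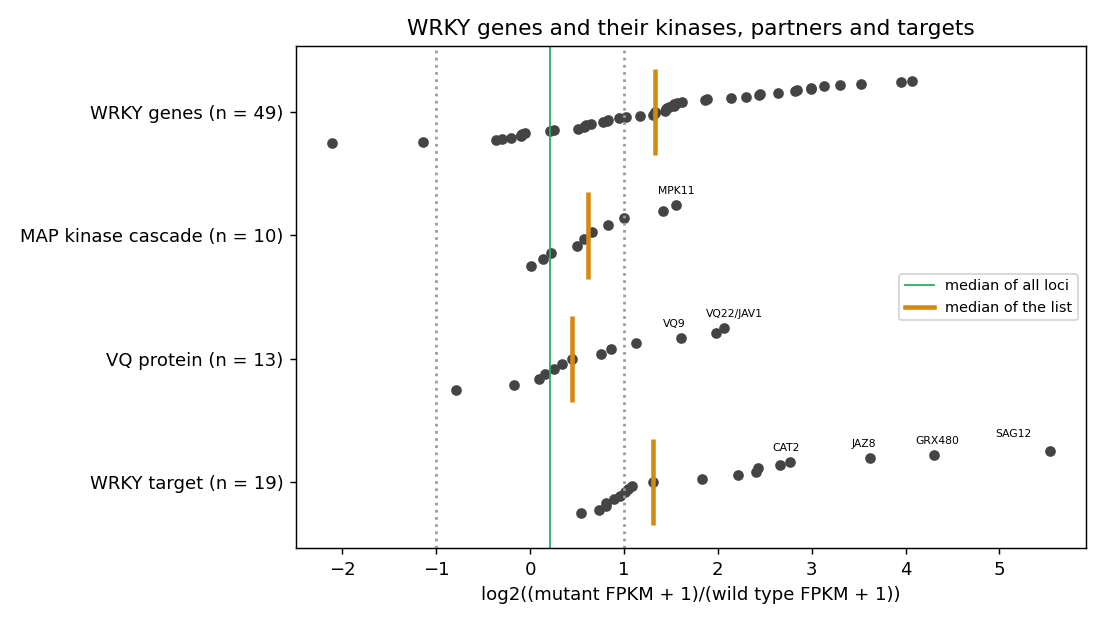
Differences of the measured WRKY genes and of 3 lists of related genes, as log2((mutant FPKM + 1)/(wild type FPKM + 1)), 1 point per gene at 1 FPKM or more in a library. Orange bars are list medians (1.33, 0.62, 0.45 and 1.31 from top to bottom), the green line is the median of all measured loci and dotted lines mark 2-fold.

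Promoters of the family were read for the W box, TTGACC or TTGACT on either strand, because WRKY genes are known to be bound by WRKY proteins. The window ran from 250 bases before to 50 after the annotated start. A W box was present in 22 of 60 members (36.7%), against 32.4% of 27443 protein-coding genes. Among the 29 higher members 12 held one (41.4%), against 40.2% of the 2972 protein-coding loci called higher in the whole table, and among the 20 other measured members 7 did, against 31.2% of the other measured loci. The share in the family was thus close to that of loci with the same call. The shorter core TTGAC, which every W box holds, was present in 22 of the 29 higher members (75.9%) and 59.3% of all higher loci, and in 10 of the 20 others and 49.4% of all others. By group the W box was found in 5 of 11, 12 of 39 and 5 of 10 promoters of groups I, II and III.

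Of other motifs, the G box CACGTG was present in 7 members (11.7%, against 7.68% of all coding genes). The evening element AAAATATCT, a motif of evening-phased clock targets, was present in 2 (3.33%, against 2.82%) and in 0 of the 29 higher members. The 250 bases before the start are shown for 3 higher members chosen because they hold several W boxes, which are in capitals (TAIR10.1, RefSeq, minus strand in each case). WRKY45 lies at chr3:327413-327662, WRKY62 at chr5:352096-352345 and WRKY30 at chr5:8154711-8154960.
WRKY45: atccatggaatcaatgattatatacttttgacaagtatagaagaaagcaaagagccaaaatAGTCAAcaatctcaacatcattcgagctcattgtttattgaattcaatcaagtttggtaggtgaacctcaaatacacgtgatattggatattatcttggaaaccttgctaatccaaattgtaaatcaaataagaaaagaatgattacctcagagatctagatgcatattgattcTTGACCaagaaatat
WRKY62: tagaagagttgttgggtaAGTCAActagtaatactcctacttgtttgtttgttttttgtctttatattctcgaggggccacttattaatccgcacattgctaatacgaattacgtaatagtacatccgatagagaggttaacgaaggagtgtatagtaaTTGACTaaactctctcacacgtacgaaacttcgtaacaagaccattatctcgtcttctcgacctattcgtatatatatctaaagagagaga
WRKY30: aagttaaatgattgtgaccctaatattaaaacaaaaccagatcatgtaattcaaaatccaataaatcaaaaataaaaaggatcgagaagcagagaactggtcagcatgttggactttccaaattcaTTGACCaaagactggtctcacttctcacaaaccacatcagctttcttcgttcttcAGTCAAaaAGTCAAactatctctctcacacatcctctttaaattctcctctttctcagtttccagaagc
WRKY45 and WRKY62 hold 2 W boxes each in this stretch and WRKY30 holds 3. WRKY18 and WRKY60, with folds near that of WRKY51, hold no W box in the window, nor does WRKY51. The shorter core TTGAC was present in WRKY60 and WRKY51 and absent from WRKY18. A match is a run of letters and does not show that a factor binds.

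**Figure D5:**
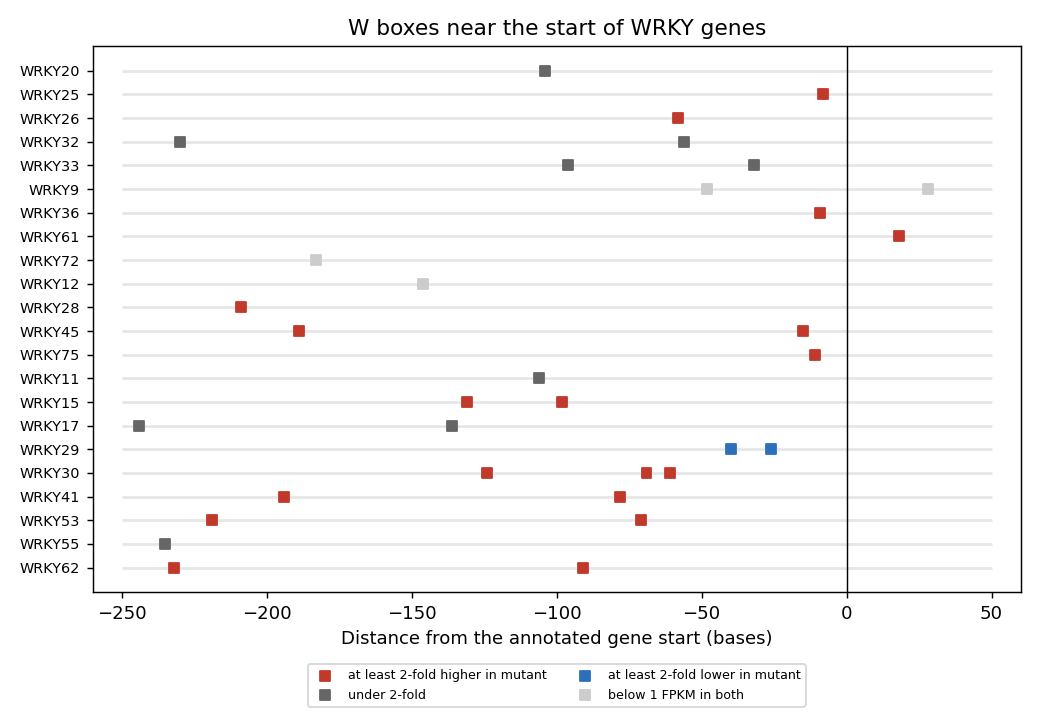
Positions of W boxes relative to the annotated start (0) in the 22 WRKY genes that hold one, from 250 bases before to 50 after; each square is a W box, coloured by the gene's difference between the mutant-labelled library and wild type. W boxes occur in genes at least 2-fold higher (12 genes), in genes that differed by less or were lower (7) and in genes below 1 FPKM (3).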

How the data were processed

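The deposited values are FPKM, made by the authors per the file headers, for 33557 loci in 1 column per library. The submitters' processing notes name TopHat 1.3.2, Cuffdiff and TAIR10; the sources used here do not give parameters, annotation release or filters. Because FPKM scales to the whole library, very abundant loci move all others. The steps between low values put the mutant-labelled library at 1.21 times the depth of wild type. Fragments per gene are estimates from TAIR10.1 transcript lengths, so no counting interval is given.

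Differences used a pseudocount of 1 FPKM, which understates those of low genes, and a filter of 1 FPKM in at least 1 library. Folds of single genes are plain ratios. Subgroups follow the standard classification of the family, with WRKY45 in IIc. Proteins translated from RefSeq TAIR10.1 coding sequences were aligned globally (Biopython 1.88, BLOSUM62), and 32810 identifiers matched the annotation. The calling and trend-removal steps were run on simulated data without noise, with wild type values of 5 FPKM or more. That run checks the arithmetic and does not cover lower wild type values or variation between libraries. All members may be named; list genes are the up to 4 with the largest difference, and others were chosen after their values were seen. The members and lists were chosen with earlier results of these data known. Alternatives changed the pseudocount, filter, scaling, call and grouping, or took out the dependence on transcript length and GC content.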

Additional observations from a re-analysis of the deposited data

How the results depend on the processing

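No paired analysis was possible because each genotype has 1 library. The count of higher WRKY genes was 29 and ran from 21 with a pseudocount of 5 FPKM to 31 with one of 0.1 FPKM; at 4-fold it was 14. WRKY54 and WRKY28 fell short of 2-fold once the median log2 ratio of all loci, a shift of 0.21, was set to 0, and WRKY54 also with the length and GC trend taken out; the other 27 were kept in both. The count of lower genes was 2, and 1 (WRKY42) with a pseudocount of 5 FPKM, with a filter at 5 FPKM or at 4-fold. The family median ran from 0.78 to 1.5. The group I median ran from 0.36 with the trend removed to 0.78, group II from 0.64 with no filter, where the 10 low genes enter, and 0.81 with a pseudocount of 5 FPKM to 1.60, and group III from 1.22 with a pseudocount of 5 FPKM to 2.09 for the mean. Group I had the lowest and group III the highest median of the 3 in every alternative that gave all 3. AtCLB, an addition made after seeing the data, ran from -1.66 to -1.25. The kinase, VQ and target medians ran from 0.41 to 0.72, 0.25 to 0.57 and 1.04 to 1.40. Values under 1 FPKM rest on few fragments.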
